A study of Mus musculus with 12 samples.

Results

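DNA repair genes were followed in 2 subsets of mouse hematopoietic stem cells (HSCs), the self-renewing marrow cells from which all blood lineages derive. The list held 57 genes named for their part in nucleotide excision repair, base excision and single-strand break repair, mismatch repair, non-homologous end joining, homologous recombination, break sensing and checkpoint signalling, and the Fanconi anaemia pathway. Of these, 55 had a row in the expression table of 14143 genes, while Nhej1 and Apex1 were not analysed here. The table was tested over the 10900 genes that reached 1 FPKM in at least 3 of 12 libraries, and 54 of the repair genes were among them. Rad51c, a homologous recombination gene, stayed under that filter, at 0 in 5 libraries and at 1.38 FPKM in its highest.

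Each group held 3 RNA-seq libraries from female C57BL6J mice, for which the labels name no transgene or deletion. Old My-HSCs and old Ly-HSCs came from mice of 18 months, and young My-HSCs and young Ly-HSCs from mice of 8 to 10 weeks by the sample labels, or 8 to 12 weeks by the protocol. All were sorted as lineage-negative, Sca-1-positive, c-kit-positive cells that lacked CD48 and CD135. My-HSCs, the myeloid-biased fraction, were the CD150-high cells and Ly-HSCs, the lymphoid-biased fraction, the CD150-low cells. The series describes its mice as 3 independent groups, and the labels do not say how many animals a library pooled, so p-values measure the spread between these libraries. Slamf1, which encodes CD150, had levels of 26.4, 35.3 and 31.0 FPKM in libraries 1, 2 and 3 of old My-HSCs and of 34.0, 20.9 and 15.0 FPKM in those of young My-HSCs. It stood at 1.78, 8.33 and 6.47 FPKM in the old Ly-HSC and at 4.87, 1.39 and 1.70 FPKM in the young Ly-HSC libraries, so the subsets did not overlap for the sorting antigen.

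A stem cell that persists for life meets several kinds of DNA damage, and each kind has its own machinery. Nucleotide excision repair removes bulky lesions, base excision repair removes altered bases, and mismatch repair removes copying errors. Broken ends are joined directly by non-homologous end joining or copied from the sister chromatid by homologous recombination, which is used in S and G2 phase, and the Fanconi anaemia proteins clear crosslinks between the strands. Resting HSCs are known for their reliance on end joining, and mice that lack repair genes of several of these pathways lose HSC function with age.

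FPKM, a fragment count scaled to transcript length and library size, was analysed as log2(FPKM + 1), and fold changes are on that scale, which understates the change of low genes. Unless stated otherwise, an error after an FPKM is the SD of 3 libraries and an error after a log2 fold change is its standard error from limma. In the fit as reported, that error and the p-values use 1 spread per gene, pooled over the 4 groups. Contrasts within My-HSCs thus also draw on the scatter of the Ly-HSC libraries, and the reverse. Read totals are unknown, and relative depth estimated from the lowest values ran from 0.533 to 1.3, with old My-HSC library 2 set to 1.0. Exact zeros made up 12.1% to 34.1% of genes, most in young Ly-HSC library 1, and genes listed at 0 are given by library. None of the 55 repair genes was listed at 0 in any of the 6 old libraries. Libraries 1, 2 and 3 listed 3, 1 and 0 of them at 0 among young My-HSCs, and 8, 2 and 3 among young Ly-HSCs. The mean log2 level over all tested genes was 3.52 to 3.66 in the old libraries, 3.42 to 3.55 in libraries of young My-HSCs, and 3.12, 3.42 and 3.35 in those of young Ly-HSCs. Summed granulocyte and erythroid markers stood highest in the old libraries numbered 1, where the integrin gene Itgam reached 124.5 FPKM in old My-HSCs and 160.0 FPKM in old Ly-HSCs. In these bulk libraries fewer cells of a type and less RNA per cell cannot be told apart.

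The pathways differed in abundance, with FPKM being a level per transcript length. Ddb1, the adaptor of the damage-binding complex and of Cul4 ubiquitin ligases, was the most abundant, at a mean of 95.9 FPKM over the 12 libraries, above 98.4% of all genes. Rad50, the coiled-coil subunit of the end-binding complex, averaged 79.1 FPKM, the poly(ADP-ribose) polymerases Parp2 and Parp1 averaged 72.5 and 58.6 FPKM, and Msh6, a subunit that recognises mismatches, averaged 54.6 FPKM. These were the 5 repair genes at a mean of 50 FPKM or more, while 22 lay from 10 to under 50 FPKM and 28 below 10 FPKM. The 6 genes under 3 FPKM were Ercc8, Ung, Lig4, Rad51c, Fancb and Fancd2, which belong to 5 of the 7 pathways.

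By pathway, the median of the genes' mean levels was 25.0 FPKM for break sensing and checkpoint signalling, 23.4 FPKM for nucleotide excision repair and 11.9 FPKM for base excision repair. It was 10.8 FPKM for mismatch repair and 10.6 FPKM for end joining, against 6.74 FPKM for homologous recombination and 6.55 FPKM for the Fanconi anaemia pathway. The most abundant gene of end joining was Xrcc5, a Ku subunit, at 32.9 FPKM, that of homologous recombination was Brca2, a mediator of strand exchange, at 13.5 FPKM, and that of the Fanconi anaemia pathway was Fancm, a DNA translocase, at 9.27 FPKM. In all, 45 repair genes were above 0 in each of the 12 libraries and 10 were listed at 0 in at least 1. The scatter between libraries of a group, as the median SD of the tested repair genes on the log2 scale, was 0.32 in old My-HSCs, 0.40 in young My-HSCs, 0.36 in old Ly-HSCs and 0.57 in young Ly-HSCs, against 0.28, 0.43, 0.35 and 0.68 over all tested genes in the same groups.

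**Figure D1:**
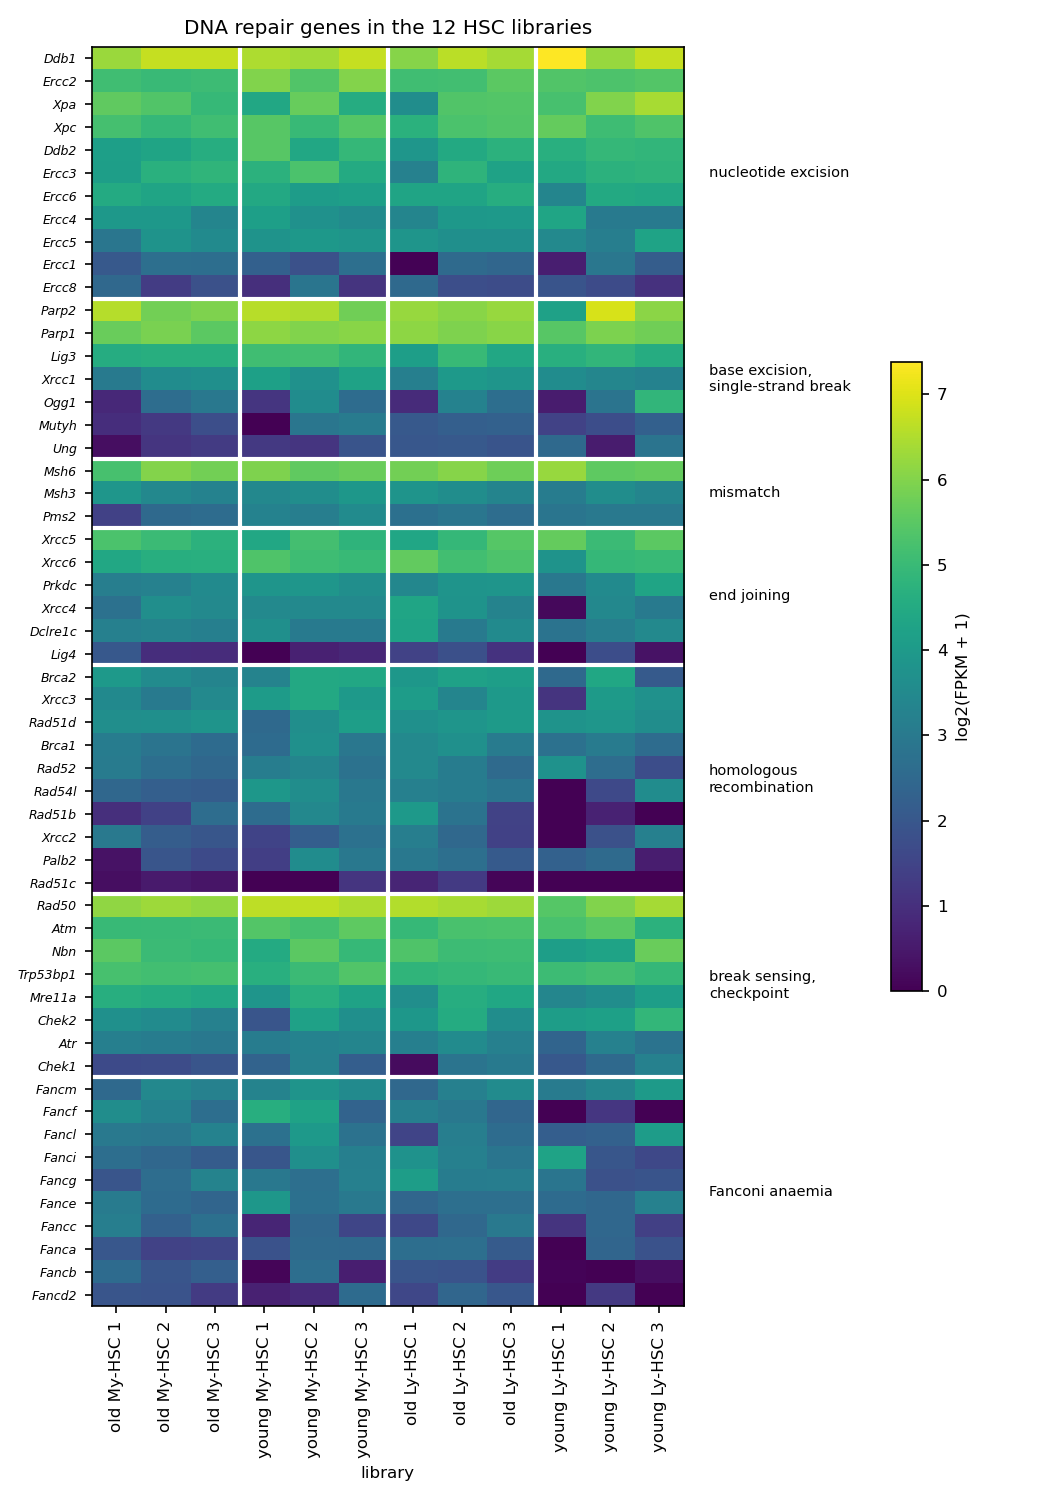
Level of each of the 55 repair genes (rows, grouped by pathway and ordered by mean level) in each of the 12 libraries (columns), as log2(FPKM + 1) by colour. Ddb1, Rad50 and Msh6, at the top of their pathways, keep a similar colour across the groups, while Brca2 and Fancf vary between libraries. In young Ly-HSC library 1, 8 genes are listed at 0, most of them in homologous recombination and the Fanconi anaemia pathway.

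Promoters were read for 48 of the 57 genes from RefSeq sequences on GRCm38.p6, each running from 250 bases before to 50 bases after the annotated start. They were searched on both strands for the octamers TTTCGCGC, TTTGGCGC, TTTCCCGC and TTTGCCGC, common forms of the site of E2F factors, which drive S phase genes. Such a match stood in 7 of the 48 genes (14.6%), namely Msh3, Msh6, Xrcc6, Brca2, Rad51c, Chek2 and Fancg, against 4.25% of the 11248 genes of the expression table with a promoter and 2.26% of all 32851 promoters. A match is a run of letters and not a shown binding site. Shown here are Xrcc6 and Fancg, whose age effects in the 2 subsets differed at an unadjusted p under 0.05, and Brca2, the most abundant recombination gene, each with its match in capitals, and Fancf, which had the smallest p of the repair genes in Ly-HSCs and no match. The windows are chr15:82016119-82016418 on the plus strand for Xrcc6, chr4:43010252-43010551 on the minus strand for Fancg, chr5:150522371-150522670 on the plus strand for Brca2 and chr7:51862218-51862517 on the minus strand for Fancf. The matches began 46, 52 and 168 bases before the start in Xrcc6, Fancg and Brca2.
Xrcc6 promoter: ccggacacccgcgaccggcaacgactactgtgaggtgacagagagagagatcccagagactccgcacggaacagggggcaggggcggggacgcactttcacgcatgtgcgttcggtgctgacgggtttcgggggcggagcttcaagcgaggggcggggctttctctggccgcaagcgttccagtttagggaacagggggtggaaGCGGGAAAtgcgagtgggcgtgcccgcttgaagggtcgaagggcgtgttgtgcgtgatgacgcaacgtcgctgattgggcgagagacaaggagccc
Fancg promoter: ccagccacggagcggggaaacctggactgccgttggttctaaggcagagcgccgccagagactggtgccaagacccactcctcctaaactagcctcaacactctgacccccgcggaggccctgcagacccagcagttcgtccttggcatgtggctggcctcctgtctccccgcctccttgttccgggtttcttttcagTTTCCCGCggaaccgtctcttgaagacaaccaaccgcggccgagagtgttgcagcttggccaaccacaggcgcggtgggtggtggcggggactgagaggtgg
Brca2 promoter: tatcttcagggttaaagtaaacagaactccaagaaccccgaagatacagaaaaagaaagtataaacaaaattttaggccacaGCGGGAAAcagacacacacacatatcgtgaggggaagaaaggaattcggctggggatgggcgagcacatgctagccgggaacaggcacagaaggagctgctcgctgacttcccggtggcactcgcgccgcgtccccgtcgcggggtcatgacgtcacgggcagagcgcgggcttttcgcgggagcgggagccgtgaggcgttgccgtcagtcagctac
Fancf promoter: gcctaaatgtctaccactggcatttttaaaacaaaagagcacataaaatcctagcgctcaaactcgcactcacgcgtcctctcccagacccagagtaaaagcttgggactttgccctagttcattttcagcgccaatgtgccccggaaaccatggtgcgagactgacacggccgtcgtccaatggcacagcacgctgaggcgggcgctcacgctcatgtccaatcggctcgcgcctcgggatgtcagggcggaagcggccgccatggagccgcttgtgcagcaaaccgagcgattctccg

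Old against young Ly-HSCs. Homologous recombination and Fanconi anaemia genes stood higher on average in old than in young Ly-HSCs, while nucleotide excision repair genes did not, and the size of this difference depended on scaling and on genes listed at 0. None of the 54 repair genes passed the test (limma, adjusted p under 0.05), against 0.349% of all tested genes. The largest differences were those of Rad51b and Fancf, at log2 fold changes of 2.51 and 2.47 with limma adjusted p of 0.13 and 0.12. An unadjusted p under 0.05 was found for 9 repair genes, 8 higher and 1 lower in old cells, where 10.2% of all genes were higher and 3.06% lower at that level. The count of 9 ran from 4, with quantile normalization, 1 weight per group, only the 6 Ly-HSC libraries or old Ly-HSC library 1 left out, to 13 without young Ly-HSC library 2. Fancf, Rad51b, Fancd2, Xrcc6, Fancb, Fancg, Xrcc4 and Rad50 were the 8 higher genes and Xpa was the lower gene. All libraries of old cells lay above all libraries of young cells for 8 tested repair genes and below them for 0, against 11.5% and 4.5% of all tested genes.

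In this comparison 36 of the 54 genes were higher in old Ly-HSCs and 18 lower, with a median log2 fold change of 0.32, against a median of 0.18 and 62.4% higher over all tested genes. The median of the repair genes minus that of all tested genes ran from -0.001 to 0.205 over the 23 alternative settings. It was lowest over genes above 0 in all 12 libraries. With quantile normalization, which moved the median of all tested genes to -0.009, the median of the repair genes was 0.038 and 29 of 54 were higher. With relative depth as a covariate the median was 0.16, and of 10 genes with an unadjusted p under 0.05, 4 were higher and 6 lower. Without the 4 libraries numbered 1 the median was 0.17 with 33 of 54 higher. All 9 tested recombination genes were higher, with a median of 0.77, as were 7 of 10 Fanconi anaemia genes, with a median of 0.89, and 5 of 6 end joining genes, with a median of 0.61. With quantile normalization the recombination median was 0.30 with 8 of 9 higher and the Fanconi anaemia median 0.362 with 6 of 10 higher. Over genes above 0 in all 12 libraries they were 0.683 with 6 of 6 higher and 0.261 with 3 of 6 higher. Medians were 0.26 for base excision repair, 0.23 for break sensing and checkpoint genes, 0.052 for mismatch repair and -0.23 for nucleotide excision repair, where 4 of 11 genes were higher. Without young Ly-HSC library 1, the library with the most zeros, the median over the 54 genes was 0.19 with 32 higher, and that over the 19 recombination and Fanconi anaemia genes, grouped after their values were seen, was 0.57 with 14 higher, against 0.77 with 16 higher over all libraries. Sums of markers named for some other cell types also stood higher in old Ly-HSCs, and which cells held that RNA was not tested. The 3 granulocyte markers summed to 297.1, 77.8 and 82.9 FPKM in old against 1.79, 49.7 and 56.9 FPKM in young Ly-HSCs, and the 5 megakaryocyte markers present to 157, 150.1 and 116 FPKM against 68.5, 78.5 and 86.4 FPKM. Neither sum overlapped between the ages, while the monocyte, B lineage, erythroid, and T and NK marker sums did. T and NK markers summed to 22.7, 6.83 and 9.99 FPKM in old against 32.5, 4.09 and 8.24 FPKM in young Ly-HSCs. The part of other cell types in the differences was not tested.

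Old against young My-HSCs. Here the repair genes leaned the other way. Of the 54, 38 were lower in old My-HSCs and 16 higher, with a median log2 fold change of -0.295, while 55.8% of all tested genes were higher and their median was 0.066. By limma 0 repair genes passed, against 0.211% of all tested genes, and 2 had an unadjusted p under 0.05, both lower, where 2.16% of all genes were lower and 5.06% higher at that level. The count of 2 was 1 without old My-HSC library 1, 7, all lower, without young Ly-HSC library 1, 8, with 7 lower, with 1 weight per group, and 9, all lower, with only the 6 My-HSC libraries. In the fit of all libraries the 2 genes were Ercc2, a helicase of the transcription and repair factor TFIIH, and Pms2, an endonuclease subunit of mismatch repair. Libraries of old cells lay below all those of young cells for 13 repair genes, against 7.8% of all tested genes, and above them for 1, against 11.3%.

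In My-HSCs the genes of base excision repair were lower in 7 of 7 cases, with a median of -0.43, and those of homologous recombination in 7 of 9, with a median of -0.44. Fanconi anaemia genes had a median of -0.40 with 7 of 10 lower, and mismatch repair genes one of -0.12 with 3 of 3 lower. The Fanconi anaemia median was -0.141 without old My-HSC library 1, -0.224 without young My-HSC library 2 and -0.243 without young My-HSC library 1. That of recombination was -0.813 without young My-HSC library 1, -0.249 without young My-HSC library 2 and -0.955 without the 4 libraries numbered 1. Over all 54 genes the median was -0.17 without young My-HSC library 2. End joining, nucleotide excision repair and checkpoint genes had medians of -0.098, -0.074 and 0.002. The median of the repair genes minus that of all tested genes ran from -0.421 to -0.241 over the 23 alternative settings. The old My-HSC libraries also held more granulocyte marker RNA, at a summed 300.1, 108 and 110.1 FPKM over the 3 markers present, against 29.5, 14.2 and 42.4 FPKM in young My-HSCs, and megakaryocyte marker RNA, at 106, 126 and 103 FPKM against 88.1, 95.3 and 83.2 FPKM. T and NK markers summed to 20.4, 27.4 and 20.3 FPKM in old against 19.5, 6.80 and 11.1 FPKM in young My-HSCs. The monocyte, B lineage and erythroid marker sums overlapped between the ages. The part of other cell types in the differences was not tested.

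**Figure D2:**
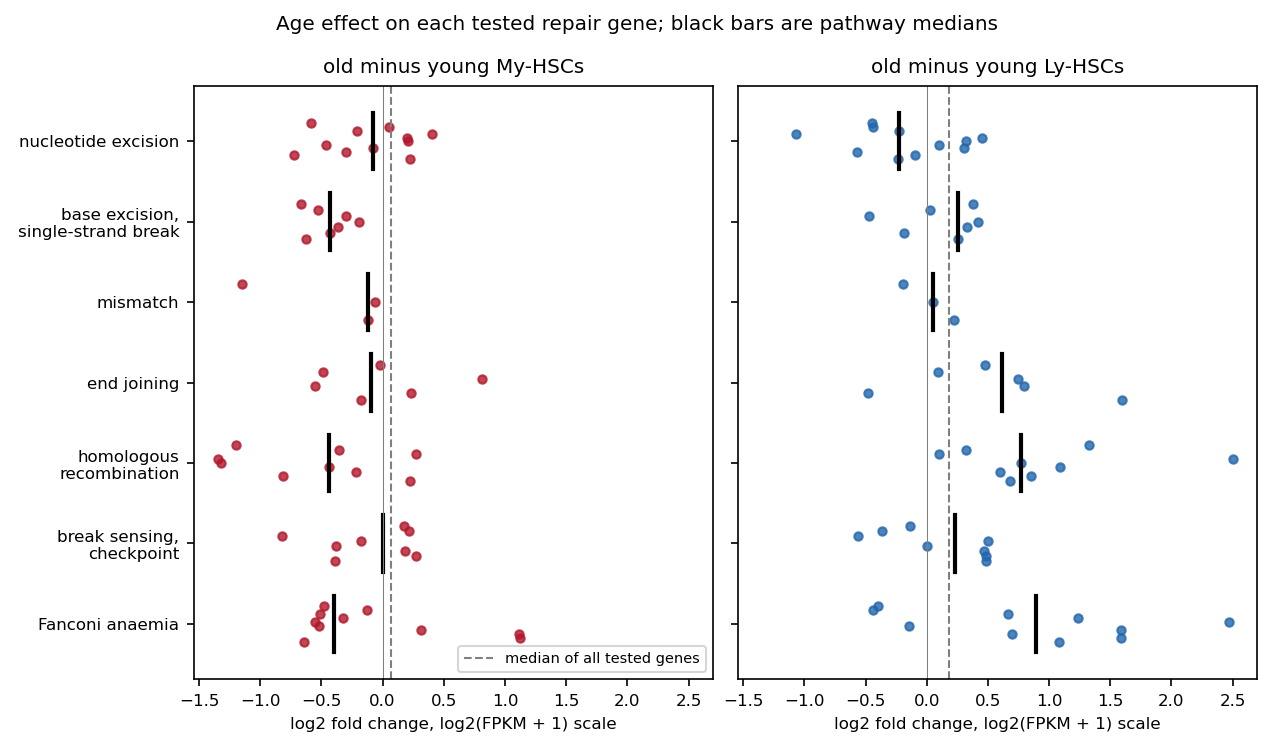
Log2 fold change of each of the 54 tested repair genes (points) by pathway, old minus young, in My-HSCs on the left and Ly-HSCs on the right; black bars are pathway medians and the dashed line is the median of all tested genes. Recombination and Fanconi anaemia genes have medians of -0.44 and -0.40 in My-HSCs and of 0.77 and 0.89 in Ly-HSCs, and no single gene passed the test.

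Homologous recombination. Rad51b, an accessory factor of strand exchange, stood at 0.985, 1.67 and 5.28 FPKM in old My-HSCs, at 5.12, 10.0 and 7.16 FPKM in young My-HSCs, at 14.8, 6.01 and 1.72 FPKM in old Ly-HSCs and at 0, 0.644 and 0 FPKM in young Ly-HSCs. The young Ly-HSC libraries were below all others for this gene, and the old Ly-HSC libraries were the most scattered. Rad54l, a DNA translocase that acts during strand exchange, stood at 4.56, 3.71 and 3.46 FPKM in old My-HSCs against 13.9, 11.2 and 6.80 FPKM in young My-HSCs, with no overlap. In old Ly-HSCs it stood at 8.26, 7.53 and 6.28 FPKM, against 0, 2.07 and 11.0 FPKM in young Ly-HSCs, which overlapped. Its log2 fold change with age was -1.20 ± 0.71 in My-HSCs (limma adjusted p = 0.83) and 1.32 ± 0.71 in Ly-HSCs (limma adjusted p = 0.43).

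Brca2 averaged 11.5 ± 2.94 FPKM in old and 16.7 ± 6.75 FPKM in young My-HSCs. In old Ly-HSCs it read 13.9, 17.8 and 16.7 FPKM, against 4.78, 20.2 and 3.23 FPKM in young Ly-HSCs, where library 2 stood with the old cells and the other two below them. Palb2, which joins Brca1 to Brca2, stood at 0.276, 2.89 and 2.15 FPKM in old My-HSCs against 1.60, 11.1 and 6.82 FPKM in young My-HSCs, which overlapped (log2 fold change -1.32 ± 0.71, limma adjusted p = 0.78). Brca1 averaged 9.80 ± 2.29 FPKM in old against 6.09 ± 1.13 FPKM in young Ly-HSCs without overlap, and 6.26 ± 1.29 against 7.84 ± 3.70 FPKM in old and young My-HSCs. Xrcc3, another accessory factor, read 10.4, 7.21 and 10.2 FPKM in old against 15.5, 20.9 and 14.7 FPKM in young My-HSCs. Xrcc2, of the same group of factors, read 6.95, 3.54 and 2.94 FPKM in old against 1.81, 3.64 and 5.79 FPKM in young My-HSCs, and 7.88, 4.62 and 1.69 FPKM in old against 0, 2.55 and 8.21 FPKM in young Ly-HSCs. Its ages overlapped in both subsets, as did those of Rad52, a single-strand annealing protein, at 5.78 ± 1.53 and 7.66 ± 1.69 FPKM in old and young My-HSCs and 7.49 ± 2.59 and 6.75 ± 5.34 FPKM in old and young Ly-HSCs. Rad51d, another gene of this kind, at 4.80 to 16.5 FPKM over the 12 libraries, showed log2 fold changes of 0.27 in My-HSCs and 0.098 in Ly-HSCs.

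Fanconi anaemia pathway. Fancf, an adaptor of the core complex that ubiquitinates Fancd2 and Fanci, is a gene of 1691 bases on chromosome 7 at 51860577 to 51862267 on the minus strand (GRCm38, GENCODE M21). It stood at 11.2, 8.70 and 5.37 FPKM in old My-HSCs, 23.5, 17.9 and 4.14 FPKM in young My-HSCs, 8.14, 6.78 and 4.38 FPKM in old Ly-HSCs, and 0, 1.26 and 0 FPKM in young Ly-HSCs. All libraries of the other three groups lay above the young Ly-HSC libraries. In Ly-HSCs the age difference had a 95% interval of 1.14 to 3.80 on the log2 scale, and the limma adjusted p of 0.12 ranged from 0.0454 to 0.47 over 22 alternatives. It passed the threshold in 1 of them, the fit without young Ly-HSC library 2. The gene shares 253 exonic bases with Gas2 on the opposite strand; the library kit keeps strand, but no source used here says whether counting did. The same holds for Rad54l, which shares 1184 exonic bases with Lrrc41 on the opposite strand, Xrcc6, which shares 344 with Desi1, Fancd2, which shares 257 with Fancd2os, Trp53bp1, which shares 2130 with Tubgcp4, Ddb2, which shares 652 with Acp2, Ddb1, which shares 328 with Tkfc, Fanca, which shares 920 with Zfp276, and Fanci, which shares 921 with Polg.

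Of the other core complex genes, Fancg read 16.3, 7.54 and 7.79 FPKM in old against 6.32, 2.57 and 2.80 FPKM in young Ly-HSCs without overlap (log2 fold change 1.24 ± 0.50, limma adjusted p = 0.32), and 5.64 ± 2.97 against 6.83 ± 1.36 FPKM in old and young My-HSCs. Fancb, whose gene lies on the X chromosome, read 5.03, 2.88 and 3.68 FPKM in old My-HSCs against 0.0718, 5.40 and 0.551 FPKM in young My-HSCs. In old Ly-HSCs it read 2.82, 2.70 and 1.47 FPKM, against 0.0494, 0 and 0.216 FPKM in young Ly-HSCs. Only in young My-HSC library 2 did a young library reach the level of the old ones for Fancb. Fancd2, the protein the core complex ubiquitinates, stood at 1.94, 4.37 and 3.03 FPKM in old Ly-HSCs and at 0, 1.33 and 0.012 FPKM in young Ly-HSCs, with no overlap. Fancc, another core subunit, averaged 5.81 ± 2.07 FPKM in old and 2.44 ± 2.04 FPKM in young My-HSCs, and 4.49 ± 2.40 FPKM in old and 2.43 ± 1.83 FPKM in young Ly-HSCs. Fanca, a core subunit, read 5.40, 5.54 and 3.35 FPKM in old against 0, 4.31 and 2.61 FPKM in young Ly-HSCs. Fanci, the partner of Fancd2, read 12.7, 8.28 and 6.31 FPKM in old Ly-HSCs, against a scattered 18.5, 2.94 and 2.02 FPKM in young Ly-HSCs. Fance, Fancl and Fancm stood lower in old than in young cells in both subsets, by log2 fold changes that did not pass the test.

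Non-homologous end joining. Xrcc6, a Ku subunit that holds broken ends, stood at 20.7, 23.9 and 24.3 FPKM in old My-HSCs against 39.7, 33.2 and 30.1 FPKM in young My-HSCs. In old Ly-HSCs it stood at 47.6, 34.2 and 38.7 FPKM, against 12.9, 28.9 and 30.3 FPKM in young Ly-HSCs. The ages did not overlap in either subset, with the old libraries below the young in My-HSCs and above them in Ly-HSCs. Its log2 fold change was -0.55 ± 0.30 in My-HSCs (limma adjusted p = 0.78) and 0.80 ± 0.30 in Ly-HSCs (limma adjusted p = 0.29). Xrcc5, its partner in Ku, did not follow it, at 32.0 ± 6.06 FPKM in old and 27.4 ± 7.11 FPKM in young My-HSCs, and 30.5 ± 11.4 FPKM in old and 41.7 ± 9.02 FPKM in young Ly-HSCs.

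Prkdc, the kinase that Ku recruits, was lower in all old than in all young My-HSC libraries, at 7.97, 8.42 and 10.5 FPKM against 13.4, 13.8 and 11.5 FPKM, and averaged 12.0 FPKM in both ages of Ly-HSCs. Xrcc4, the scaffold of the ligase, averaged 9.09 ± 2.95 FPKM in old and 10.1 ± 0.043 FPKM in young My-HSCs. In Ly-HSCs it read 19.3, 12.7 and 8.86 FPKM in old cells against 0.114, 9.80 and 7.25 FPKM in young cells, where library 1 stood apart. Lig4, the ligase itself, was low, at 3.13, 0.944 and 0.909 FPKM in old against 0, 0.594 and 0.783 FPKM in young My-HSCs, and was the gene whose old My-HSC libraries all lay above the young. Dclre1c, the Artemis nuclease, showed log2 fold changes of -0.022 in My-HSCs and 0.48 in Ly-HSCs.

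Break sensing and checkpoint signalling. Rad50 read 70.4, 78.1 and 71.2 FPKM in old against 99.0, 102 and 87.7 FPKM in young My-HSCs, without overlap, and 91.3, 84.8 and 77.9 FPKM in old against 42.2, 62.1 and 82.5 FPKM in young Ly-HSCs, with overlap. The log2 fold changes were -0.39 ± 0.21 in My-HSCs and 0.49 ± 0.21 in Ly-HSCs, with limma adjusted p of 0.80 and 0.35. Mre11a, the nuclease of the same complex, averaged 22.1 ± 1.48 FPKM in old and 18.5 ± 5.42 FPKM in young My-HSCs, and 18.2 ± 5.96 FPKM in old and 12.5 ± 3.74 FPKM in young Ly-HSCs. Atm, the kinase that the complex activates, was tightly measured in old My-HSCs, at 30.6, 30.9 and 31.6 FPKM against 41.0, 35.8 and 45.6 FPKM in young My-HSCs, and averaged 35.0 and 35.6 FPKM in old and young Ly-HSCs. Atr, the kinase of stalled forks, showed log2 fold changes of -0.17 in My-HSCs and 0.50 in Ly-HSCs.

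Chek1, the effector kinase of Atr, read 2.16, 2.27 and 2.85 FPKM in old against 4.08, 8.46 and 3.58 FPKM in young My-HSCs, and 0.164, 6.11 and 7.28 FPKM in old against 3.06, 4.73 and 8.45 FPKM in young Ly-HSCs. Chek2, the effector of Atm, stood at 10.4 ± 1.85 FPKM in old and 10.8 ± 7.44 FPKM in young My-HSCs, and 15.9 ± 5.58 FPKM in old and 20.6 ± 6.65 FPKM in young Ly-HSCs. Trp53bp1, which directs ends towards joining, read 36.9, 34.6 and 35.7 FPKM in old My-HSCs and 24.1, 31.8 and 40.4 FPKM in young My-HSCs. Nbn, the third subunit of the Rad50 complex, averaged 35.6 ± 8.35 and 32.0 ± 11.7 FPKM in old and young My-HSCs, and 35.2 ± 4.09 and 28.7 ± 19.3 FPKM in old and young Ly-HSCs.

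**Figure D3:**
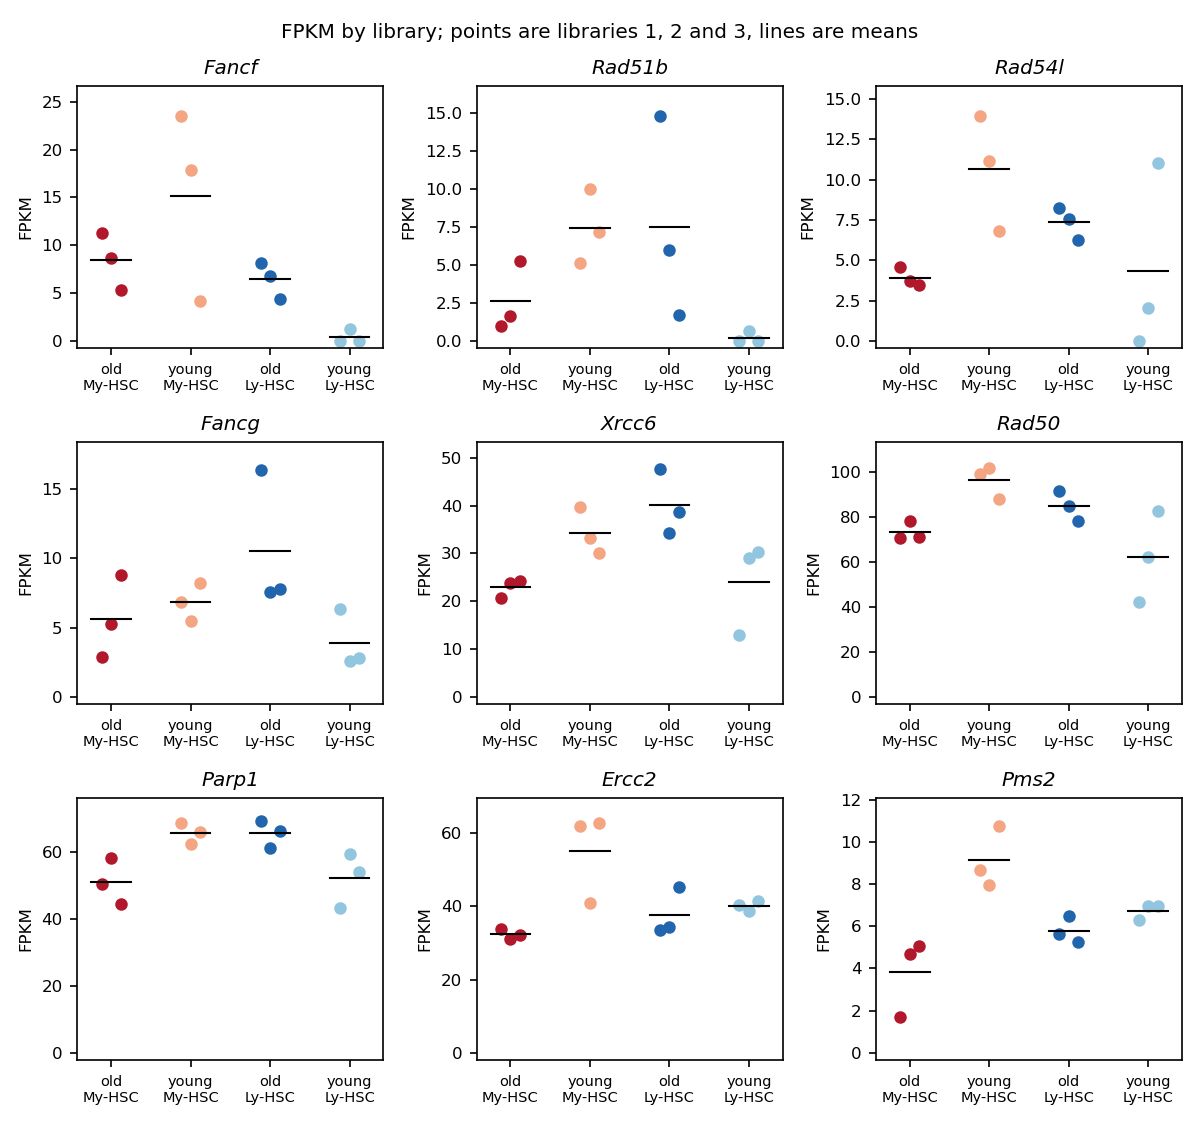
FPKM of 9 repair genes in each library (points, libraries 1 to 3 from left to right within a group) with the group mean as a line, for old and young My-HSCs and old and young Ly-HSCs. Fancf and Rad51b are near 0 in young Ly-HSCs, and Xrcc6 and Parp1 have their old libraries below the young in My-HSCs and above the young in Ly-HSCs.

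Nucleotide excision repair. Ercc2 stood at 33.9, 31.1 and 32.2 FPKM in old My-HSCs against 61.9, 40.9 and 62.9 FPKM in young My-HSCs, and at 37.7 ± 6.57 FPKM in old against 40.1 ± 1.41 FPKM in young Ly-HSCs. All old My-HSC libraries lay below all young ones, at a log2 fold change of -0.73 ± 0.21 (limma adjusted p = 0.35, and 0.12 to 0.82 over 23 alternatives). It shares 744 exonic bases with Klc3 on the opposite strand. Ddb2, the lesion-binding partner of Ddb1, averaged 19.7 ± 3.19 FPKM in old and 31.1 ± 11.5 FPKM in young My-HSCs, and 20.2 ± 6.16 FPKM in old and 27.2 ± 2.85 FPKM in young Ly-HSCs. Ddb1 averaged 95.2 ± 16.3 FPKM in old and 91.4 ± 12.4 FPKM in young My-HSCs, and 81.5 ± 16.2 FPKM in old and 115 ± 46.3 FPKM in young Ly-HSCs, the last group being spread by library 1 at 166 FPKM.

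Xpa, which checks the opened lesion and organises the incision complex, read 46.6, 40.2 and 29.8 FPKM in old and 20.5, 49.8 and 22.8 FPKM in young My-HSCs, and 11.4, 40.8 and 41.4 FPKM in old and 36.5, 61.8 and 84.8 FPKM in young Ly-HSCs. The ages overlapped in both subsets. Its log2 fold changes were 0.41 ± 0.48 in My-HSCs and -1.07 ± 0.48 in Ly-HSCs (limma adjusted p = 0.96 and 0.36). The incision nuclease gene Ercc5 read 6.50, 12.9 and 10.5 FPKM in old against 13.0, 14.3 and 13.5 FPKM in young My-HSCs, while Ercc4 overlapped, at 12.6 ± 2.87 and 13.3 ± 3.18 FPKM in the same groups. Xpc, the general lesion sensor, averaged 33.0 ± 3.38 FPKM in old and 38.6 ± 7.21 FPKM in young My-HSCs, and 34.8 ± 8.25 FPKM in old and 40.6 ± 7.90 FPKM in young Ly-HSCs. The other four genes of the pathway overlapped between the ages in both subsets, namely Ercc1, the partner of Ercc4, Ercc3, a TFIIH helicase, and Ercc6 and Ercc8, which act at stalled transcription. Their log2 fold changes with age ran from -0.29 to 0.22 in My-HSCs and from -0.57 to 0.45 in Ly-HSCs, and Ercc1 and Ercc8 were the lowest genes of the pathway, at means of 3.82 and 2.73 FPKM.

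Base excision and single-strand break repair. Parp1, which marks strand breaks with poly(ADP-ribose), stood at 50.3, 58.2 and 44.5 FPKM in old against 68.6, 62.3 and 66.0 FPKM in young My-HSCs. In old Ly-HSCs it stood at 69.2, 61.2 and 66.3 FPKM, against 43.2, 59.6 and 54.0 FPKM in young Ly-HSCs. As with Xrcc6, the ages did not overlap in either subset and the order was opposite. The log2 fold changes were -0.37 ± 0.18 in My-HSCs and 0.33 ± 0.18 in Ly-HSCs (limma adjusted p = 0.73 and 0.44). Xrcc1, the scaffold that Parp1 recruits, read 7.15, 11.1 and 11.9 FPKM in old against 17.3, 12.2 and 18.1 FPKM in young My-HSCs, and averaged 12.1 ± 3.57 and 9.73 ± 1.15 FPKM in old and young Ly-HSCs.

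Lig3, the ligase bound to Xrcc1, read 22.6, 23.8 and 23.7 FPKM in old against 33.6, 34.2 and 28.0 FPKM in young My-HSCs, and averaged 22.4 ± 6.94 and 25.1 ± 2.83 FPKM in old and young Ly-HSCs. It shares 1826 exonic bases with Rffl. Parp2 was more scattered, with 17.7, 121 and 67.9 FPKM in the young Ly-HSC libraries alone. The glycosylase genes were low or scattered: Ung read at most 6.15 FPKM in any library, Mutyh was listed at 0 in young My-HSC library 1, and Ogg1 ran from 0.479 to 27.9 FPKM within the young Ly-HSCs. In mismatch repair, Pms2 read 1.70, 4.69 and 5.08 FPKM in old against 8.68, 7.95 and 10.7 FPKM in young My-HSCs, without overlap (log2 fold change -1.15 ± 0.43, limma adjusted p = 0.53). It averaged 5.79 ± 0.61 FPKM in old and 6.74 ± 0.37 FPKM in young Ly-HSCs, and it shares exonic bases with the coding genes Gm42421 and Rsph10b on the same strand. Msh3 and Msh6 overlapped between the ages in both subsets, Msh6 at 51.3 ± 13.6 and 52.7 ± 7.48 FPKM in old and young My-HSCs.

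Difference between the age effects. Set against each other, the age difference was lower in My-HSCs than in Ly-HSCs for 41 of the 54 genes, with a median of -0.46 on the log2 scale, where 42.8% of all tested genes were higher and their median was -0.12. No repair gene passed, and no gene of the whole table did (limma, 0%, with 616 genes at an unadjusted p under 0.05). Of the repair genes 8 had an unadjusted p under 0.05, as did 5.65% of all genes, with 7 lower and 1 higher, where 3.66% of all genes were lower and 1.99% higher at that level. Over the alternatives 5 to 12 genes reached that level. The 7 were Rad51b, Fancf, Xrcc6, Rad50, Parp1, Rad54l and Fancg, and the 1 was Xpa.

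Rad51b differed by -3.85 ± 0.93 between the subsets' age effects (95% interval -5.86 to -1.85, limma adjusted p = 0.68) and Fancf by -3.02 ± 0.87 (limma adjusted p = 0.74). Xrcc6 differed by -1.35 ± 0.42, Rad50 by -0.87 ± 0.30 and Parp1 by -0.70 ± 0.25, with limma adjusted p of 0.80, 0.84 and 0.86. Xrcc6 and Parp1 were the repair genes whose libraries were separated by age in both subsets in opposite directions, a pattern found in 0.651% of tested genes. The unadjusted p of Rad51b, Fancf and Xrcc6 was under 0.05 in each of their 21, 21 and 22 alternatives. These alternatives reuse the libraries in which the genes were named for a small p, and so are no separate evidence. Rad51b and Fancf, listed at 0 in young Ly-HSC libraries 1 and 3, were left out over genes above 0 in all 12 libraries. The median difference was -1.52 for homologous recombination and -0.82 for the Fanconi anaemia pathway, against -0.12 for nucleotide excision repair, and -0.61, -0.54, -0.345 and -0.27 for base excision repair, end joining, mismatch repair and checkpoint genes.

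**Figure D4:**
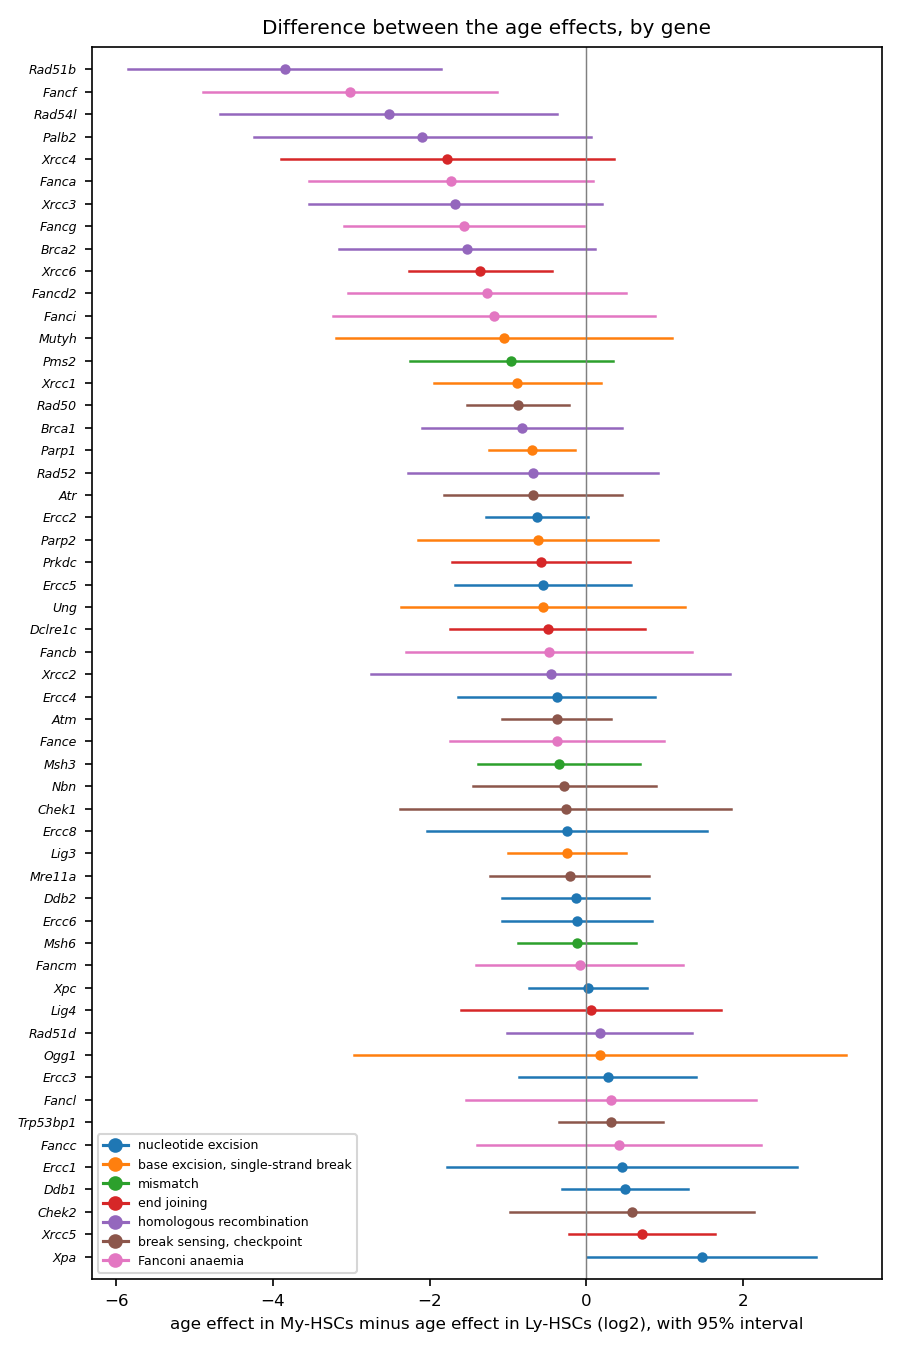
Age effect in My-HSCs minus age effect in Ly-HSCs for each of the 54 tested repair genes, on the log2 scale with limma's 95% interval, coloured by pathway. The lowest values are those of Rad51b at -3.85 and Fancf at -3.02 and the highest is that of Xpa at 1.47; intervals that leave out 0 belong to the 8 genes with an unadjusted p under 0.05, and none passed adjustment.

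Over the 19 recombination and Fanconi anaemia genes, grouped after their values were seen, the median age difference was -0.44 in My-HSCs and 0.77 in Ly-HSCs. Over the 35 genes of the other 5 pathways it was -0.19 and 0.090. The grouping followed the values, so this contrast is a description and no separate evidence. Among the other 5 pathways, base excision repair had a median of -0.43 in My-HSCs. Of 23 tested S phase genes 0 passed in either subset. Their median was -0.43 in My-HSCs, with 7 higher and 16 lower, and 0.70 in Ly-HSCs, with 21 higher and 2 lower. In My-HSCs 6 S phase genes had an unadjusted limma p under 0.05, against 7.21% of all tested genes, with 1 higher and 5 lower. In Ly-HSCs 3 had, all higher, against 10.2% of all tested genes higher. Old My-HSC libraries lay below all young ones for 11 S phase genes and above them for 2, against 7.8% and 11.3% of all tested genes. Old Ly-HSC libraries lay above all young ones for 2, against 11.5%. By library, the mean level of the recombination genes on the log2 scale was 2.68, 2.62 and 2.68 in old My-HSCs, 2.78, 3.61 and 3.33 in young My-HSCs, 3.55, 3.26 and 2.84 in old Ly-HSCs, and 1.80, 2.75 and 2.35 in young Ly-HSCs. The S phase mean was 3.77, 3.77 and 3.68 in old My-HSCs, 3.67, 4.25 and 4.0 in young My-HSCs, 4.39, 4.48 and 4.14 in old Ly-HSCs, and 3.09, 3.90 and 3.99 in young Ly-HSCs. The old libraries of both measures lay above the young in Ly-HSCs, and in My-HSCs they lay below all young libraries for the recombination genes and below 2 of 3 for the S phase genes.

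Mitosis genes had medians of 0.49 in My-HSCs and 1.71 in Ly-HSCs over 16 tested genes, of which 0 passed in either subset. At an unadjusted limma p under 0.05 there were 0 in My-HSCs, against 7.21% of all tested genes. In Ly-HSCs there were 11, all higher, against 10.2% of all tested genes higher. Old Ly-HSC libraries lay above all young ones for 6 mitosis genes, against 11.5%. By library, the mean of the mitosis genes was 3.69, 2.845 and 2.65 in old against 1.94, 2.92 and 2.78 in young My-HSCs. Only old My-HSC library 1 lay above all young My-HSC libraries. In Ly-HSCs the mean was 4.26, 3.88 and 2.86 in old against 1.43, 2.12 and 1.84 in young cells, without overlap. The My-HSC median was opposite in sign to that of the recombination genes, but the ages overlapped. The Fanconi anaemia mean was 2.53, 2.79 and 2.57 in old Ly-HSCs against 1.62, 1.92 and 1.84 in young Ly-HSCs, and 2.65, 2.49 and 2.48 in old My-HSCs against 2.29, 2.98 and 2.53 in young My-HSCs. Nucleotide excision repair genes averaged 3.70 to 4.42 in every library, the lowest being old Ly-HSC library 1. The part of proliferation, of zeros and of depth in these differences was not tested.

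**Figure D5:**
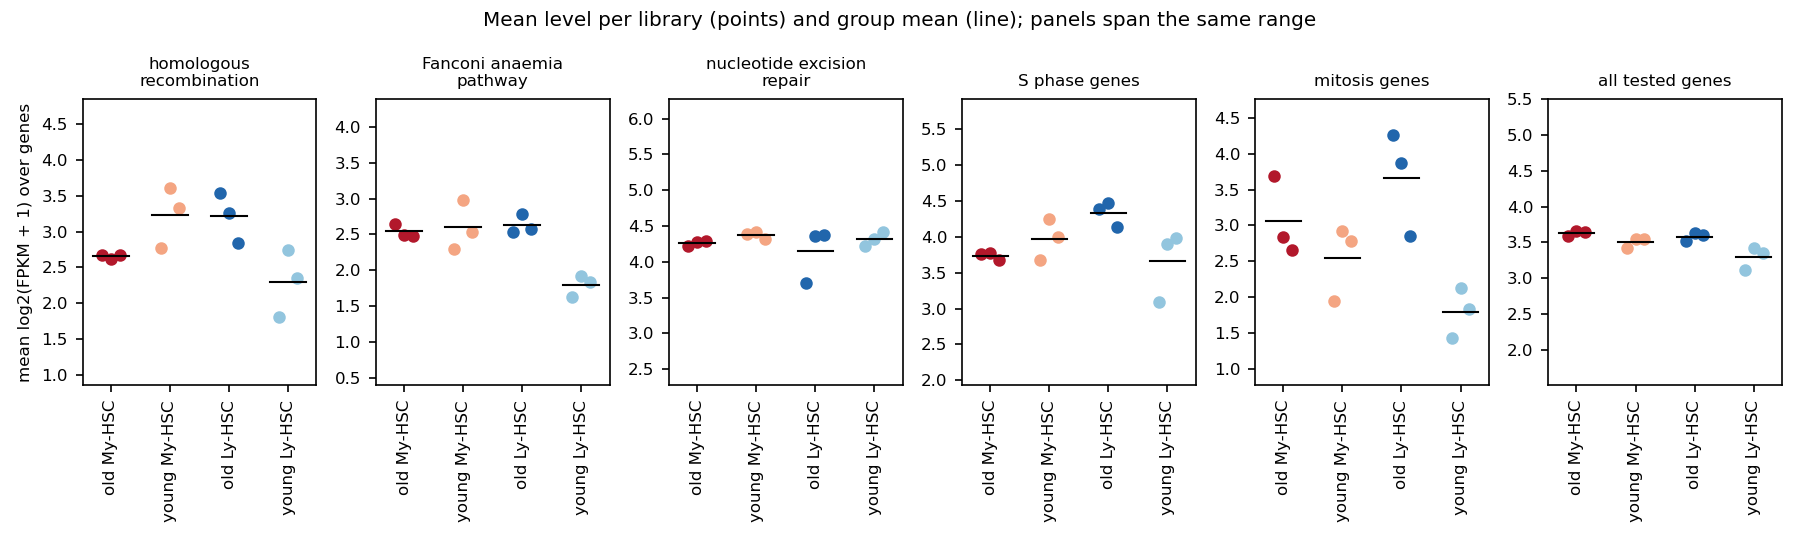
Mean log2(FPKM + 1) over the genes of 3 repair pathways, of S phase and mitosis lists and of all tested genes in each library (points), with group means as lines; each panel spans the same range. Young Ly-HSCs have the lowest group mean in every panel except nucleotide excision repair. Their libraries stand at 1.80 to 2.75 for recombination genes, 1.62 to 1.92 for Fanconi anaemia genes and 3.12 to 3.42 for all tested genes.

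My-HSCs against Ly-HSCs. In young mice 42 of 54 repair genes stood higher in My-HSCs, and the median log2 fold change was 0.32, against 59.2% and 0.135 over all tested genes. The median was 0.173 with 34 higher without young Ly-HSC library 1, and 0.15 with 39 higher with quantile normalization. In old mice the lean was reversed, with 39 of 54 lower in My-HSCs and a median of -0.18, against 52% higher and 0.018 over all tested genes. These contrasts share libraries with the age contrasts and are no separate evidence. No repair gene passed in either (limma), where 0.119% of genes passed in young and 0.0275% in old mice. In young mice 5 repair genes had an unadjusted p under 0.05, with 4 higher and 1 lower in My-HSCs, where 9.59% of all genes were higher and 4.21% lower at that level. That count was 2 over genes above 0 in all 12 libraries and 13 without young Ly-HSC library 2. In old mice 1 had, Xrcc6, where 4.03% of all genes did, and it was lower in My-HSCs, as were 1.55% of all genes. With only the 6 libraries of old mice 7 repair genes had, all lower in My-HSCs, and with relative depth as a covariate 5 had, with 3 higher and 2 lower.

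Fancf came nearest to the threshold, in young My-HSCs against young Ly-HSCs, at a log2 fold change of 3.35 ± 0.61 (limma adjusted p = 0.058, and 0.0195 to 0.44 over 22 alternatives). Every young My-HSC library exceeded every young Ly-HSC library. Rad51b followed at 2.79 ± 0.66 (limma adjusted p = 0.095), then Rad50 at 0.67 ± 0.21, Rad54l at 1.76 ± 0.71 and, lower in My-HSCs, Chek2 at -1.11 ± 0.51. Libraries did not overlap for 7 repair genes in young mice, all higher in My-HSCs, against 8.97% of all tested genes higher and 4.41% lower, and for 2 higher and 10 lower in old mice, against 9.19% and 7.53%. The 10 genes below Ly-HSCs in every old My-HSC library were Atr, Parp1, Fanci, Xrcc6, Rad54l, Fanca, Ung, Palb2, Mutyh and Pms2.

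Averaged over the ages, Fancf was higher in My-HSCs by 1.84 ± 0.43 (limma adjusted p = 0.098) and Chek2 differed by -0.82 ± 0.36 (limma adjusted p = 0.42), these being the 2 repair genes with an unadjusted p under 0.05, where 7.33% of all genes were higher and 3.83% lower at that level, and 1 to 4 reached it over the alternatives. By limma 0 repair genes passed, against 0.413% of all tested genes. Over both ages the repair genes were about evenly divided, with 31 higher and 23 lower in My-HSCs, against 58.1% higher over all tested genes.

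Old against young over both subsets. With the subsets averaged, 28 repair genes were higher and 26 lower in old cells, with a median of 0.019, against 62.7% higher and a median of 0.13 over all tested genes. By limma 0 of the 54 passed, against 0.844% of all tested genes, and 6 had an unadjusted p under 0.05, with 3 higher and 3 lower, where 11.1% of all genes were higher and 3.54% lower at that level. With quantile normalization 0 were higher and 4 lower, with a median over the 54 genes of -0.16, and with relative depth as a covariate 2 were higher and 7 lower, so the split depended on the scaling. Without the 4 libraries numbered 1, 1 gene remained at that level, which was lower. In the fit as reported the higher genes were Fancb at 1.36 ± 0.42, Fancd2 at 0.95 ± 0.41 and Fancf at 0.96 ± 0.43, with limma adjusted p of 0.16, 0.31 and 0.33. The lower genes were Ercc2 at -0.41 ± 0.15, Ddb2 at -0.51 ± 0.22 and Pms2 at -0.67 ± 0.30, with limma adjusted p of 0.23, 0.30 and 0.33. Neither old nor young libraries of both subsets together were separated for any repair gene, against 1.21% of tested genes higher and 0.367% lower.

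A further list of 98 repair genes held other genes of the same pathways and genes of translesion synthesis and direct reversal. Of the 98, 92 had a row and 91 were tested, 9 of them in translesion synthesis and direct reversal. Of the 91, 59 stood higher in old than in young Ly-HSCs, at a median of 0.15, against 62.4% of all tested genes and a median of 0.18, and 1 rose, where 0.349% of all tested genes passed in either direction. This was Rad51ap1, which stimulates strand invasion, at 9.77, 6.37 and 3.47 FPKM in old against 0.030, 0.508 and 0.351 FPKM in young Ly-HSCs. Its log2 fold change was 2.47 ± 0.47 (limma adjusted p = 0.0462, higher in each old library), and it stood at 3.71 ± 1.03 and 3.45 ± 0.47 FPKM in old and young My-HSCs. The call held in 5 of 23 alternatives, over which the adjusted p by limma ran from 0.0328 to 0.345. It was lost when any library other than young Ly-HSC libraries 2 and 3 was left out, at adjusted p of 0.0505 to 0.201.

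Rbbp8, which starts end resection, came next in Ly-HSCs, at 32.4 ± 5.76 FPKM in old against 13.2 ± 4.55 FPKM in young cells without overlap (limma adjusted p = 0.095), followed by Rad54b, at 13.9 ± 5.70 FPKM in old against 2.86 ± 2.52 FPKM in young cells (limma adjusted p = 0.14). In My-HSCs 43 of the 91 were higher in old cells, against 55.8% of all tested genes, and 0 passed, against 0.211%. The 3 with the smallest p were all lower, namely Timeless, a fork protection factor, at 6.73 ± 1.82 FPKM in old against 15.1 ± 0.95 FPKM in young cells, Slx4, a nuclease scaffold, at 14.2 ± 0.46 against 23.0 ± 2.67 FPKM, and Lig1, the replicative ligase, at 33.5 ± 3.79 against 54.3 ± 12.8 FPKM. Their limma adjusted p were 0.48, 0.55 and 0.57. By pathway, the further genes did not all lean as the listed ones did. In My-HSCs the 17 further recombination genes had a median of 0.086, with 11 higher and 6 lower. The 15 further base excision genes had one of 0.134, with 8 higher and 7 lower. The 8 further Fanconi anaemia genes had one of -0.168, with 3 higher and 5 lower. In Ly-HSCs the medians of these pathways were 0.639, 0.240 and 0.020, with 14, 8 and 5 genes higher. Over both subsets H2afx, the histone variant phosphorylated around breaks, stood higher in old cells by 2.09 ± 0.60 and Shfm1, a small partner of Brca2, by 0.61 ± 0.18, with limma adjusted p of 0.13 and 0.14.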

How the data were processed

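RNA was measured in 12 libraries of sorted HSCs, 3 in each of 4 groups of age and subset, made with a stranded mRNA kit and read as paired ends, per the labels' protocols. The authors deposited 1 table of FPKM per gene and library, a unit that removes read totals. Without giving roles, the submitters' processing notes list GRCm38 (mm10), STAR, bcl2fastq 2.17 and DESeq2. No source used here states the annotation, whether counting used strand, or how reads that map to several genes were treated. Identifiers matched GENCODE M21 for 14139 of 14143 genes.

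The deposited FPKM were analysed as log2(FPKM + 1), keeping genes at 1 FPKM or more in at least 3 libraries. In R 4.3.3, limma 3.58.1 fitted 1 mean per group to the 12 libraries together, with trended variances and with 8 residual and 5.11 prior degrees of freedom. Tests were two-sided, p-values were adjusted by Benjamini-Hochberg over all tested genes of a contrast, and a gene passed below 0.05. The fit was tested on simulated data. The repair genes, pathways and lists were chosen with earlier results of these data known.

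Genes were named by rule, being in each pathway the 2 smallest p-values in each age contrast and their mean, the most abundant gene, and genes with an unadjusted p under 0.05 for the difference between the age effects or the mean subset effect; of the other repair genes those called and the 3 smallest p-values. Other repair genes are named with their levels.

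Replicate numbers come from the titles. Same-numbered old My-HSC and old Ly-HSC libraries deviated from their group means together, with correlations across genes of 0.210 to 0.256, while in the other pairs of groups the correlations were -0.039 to 0.048. Same numbers thus went together in the old libraries and in no other pair of groups, though no label states a pairing. The fit as reported took no account of this, also where old My-HSCs and old Ly-HSCs were compared or averaged. The replicate block did, but gave the young groups the same replicate effects.

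Alternatives were pseudocount 0.1, no filter, genes above 0 in all libraries, quantile normalization, median-of-ratios scaling, TPM, 1 weight per group, a replicate block, relative depth as a covariate, leaving out each library or the 4 libraries numbered 1, and the 6 compared libraries alone.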

Additional observations from a re-analysis of the deposited data

Results flagged for a closer look

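Xrcc6 and Parp1 stood out because every old library lay below every young library in My-HSCs and above every young library in Ly-HSCs. The difference between the age effects was tested and did not pass. For Xrcc6 it was -1.35 on the log2 scale (limma unadjusted p = 0.0070, adjusted p = 0.80), and for Parp1 it was -0.70 (limma unadjusted p = 0.017, adjusted p = 0.86). Over the alternatives the value ran from -1.56 to -0.67 for Xrcc6 and from -0.80 to -0.49 for Parp1. The same opposite separation was found in 71 of 10900 tested genes (0.651%).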

How the results depend on the processing

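In all 7 contrasts 0 repair genes passed the test in the fit as reported, and none passed under any alternative that kept all libraries or left out the libraries numbered 1 together. Leaving out 1 library at a time gave 0 to 1 passing genes for age in Ly-HSCs, 0 to 2 for subset in young mice, 0 to 1 for the mean age effect and 0 to 1 for the mean subset effect. The genes were Fancf for age in Ly-HSCs without young Ly-HSC library 2 (limma adjusted p = 0.0454, range 0.0454 to 0.47), Fancf (limma adjusted p = 0.0195, range 0.0195 to 0.44) and Brca2 (limma adjusted p = 0.0495, range 0.0495 to 0.76) for subset in young mice without the same library, Rad54l there without young Ly-HSC library 3 (limma adjusted p = 0.0489, range 0.0489 to 0.71), Fancb for mean age without young My-HSC library 2 (limma adjusted p = 0.0344, range 0.0344 to 0.66), and Fancf for mean subset without young My-HSC library 3 (limma adjusted p = 0.0385, range 0.0385 to 0.26). The cause was not tested.

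The median over the repair genes for age in Ly-HSCs was 0.32 as reported, 0.098 over genes above 0 in all 12 libraries, where 45 repair genes remained in the test, and 0.038 with quantile normalization, and it was 0.190 to 0.392 when leaving out 1 library. The other medians moved by less than the pooled SD between libraries, 0.197. With the replicate block 0 repair genes passed in each contrast, and over all genes 9, 15, 1, 4, 0, 69 and 32 passed for age in My-HSCs, age in Ly-HSCs, subset in old mice, subset in young mice, the difference between age effects, mean age and mean subset, against 23, 38, 3, 13, 0, 92 and 45 without it. The block also ended the call of Rad51ap1 (limma adjusted p = 0.0852). For age in Ly-HSCs the count over all genes ran from 7, without old Ly-HSC library 2, to 223, without young Ly-HSC library 2, and from 0 to 46 under the other settings, with 0 when only the 6 Ly-HSC libraries were fitted. Since FPKM gives no counts, the counting error of genes at a few FPKM is unknown.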
